A study of Homo sapiens with 2 samples.

Results

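Replication-dependent histone genes supply the bulk of the histone protein that packages newly made DNA. They were taken from the array by symbol, as every probe that the platform annotation gave exactly 1 gene symbol and whose symbol belongs to the clustered histone families (current names H1-1 to H1-6, and H2AC, H2BC, H3C or H4C with a number, formerly HIST1H to HIST4H). This gave 56 genes of 18377 measured, each read by 1 probe: 6 linker histone H1 genes, 14 H2A genes, 17 H2B genes (1 of them the pseudogene H2BC19P), 8 H3 genes and 11 H4 genes. A probe here means 1 row of the deposited values, which is not necessarily a single oligonucleotide. The rule goes by symbol and uses no measured value, although earlier results of these data were known when it was chosen.

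The samples were 2 cultures of K562, an established human leukaemia line driven by the fusion kinase BCR-ABL1, and both received imatinib, which inhibits that kinase, at 2 µM for 6 h. The first culture was grown with erythropoietin (EPO), the hormone of red cell production. The label of the second names no EPO, and it is read as the culture without EPO from the growth protocol. Each culture gave 1 whole-transcript Gene 1.0 ST array, and K562 cells without imatinib were not analysed here. Differences are given on the log2 scale as the culture with EPO minus the culture without EPO. A single array per culture leaves no replicate check of any difference and allows no test, so genes are counted by a fixed size, at least 2-fold (1 on the log2 scale), and precision is limited by the number of arrays.

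Nucleosomes hold pairs of the core histones H2A, H2B, H3 and H4, and H1 binds the linker DNA between them. The clustered genes for these proteins are short and mostly have no introns. Their mRNAs are made in S phase, end in a conserved stem-loop instead of a poly(A) tail, and are degraded when DNA synthesis stops. Replacement variants such as H2AX and H3.3 come from genes outside this set and are mostly made throughout the cell cycle. Since an array of a culture averages over its cells, a smaller share of cells in S phase and less histone mRNA per cell cannot be told apart.

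Deposited values are deviations of each probe from a baseline that the authors set, so they give no level of a transcript, and the K562 identity of the cultures could not be checked on marker levels. The arrays spread differently around that baseline: the standard deviation across all probes was 0.134 with EPO and 0.431 without EPO. As the plot of all genes shows, a gene below the baseline with EPO usually lay above it without EPO, so which culture departed from the baseline cannot be read from a difference. Broad classes of genes that were not chosen for a tie to histones also differed between the arrays. Genes of cellular machinery, such as proteasome, mitochondrial ribosome and spliceosome subunits, had a median difference of 0.50 (330 genes, 47 of them at least 2-fold higher with EPO), while families that blood cells hardly express, here called silent, such as olfactory receptors, had a median of -0.33 (482 genes), and all genes had a median of -0.047. The part that these class differences have in the histone values was not tested, and statements below say where subtracting a class median turns a direction.

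In the values as deposited, most histone genes were lower with EPO than without EPO (43 of 56, 76.8%, below 0, against 54.6% of all genes), although their median turned to 0.013 with the silent-family median subtracted. That share is not particular to them: 75.9% of other short protein-coding genes, 85.7% of measured replacement variants and 91.7% of silent-family genes were below 0. The low values of 2-fold and more lay among the core histones. A difference of at least 2-fold towards lower values with EPO was found in 10 of the 56 genes (17.9%), against 0.898% of all genes. That share was 2.49% of silent-family genes and 1.20% of other short protein-coding genes. None of the 56 (0) was at least 2-fold higher, against 6.19% of all genes. That lack is not particular to them: the share was 0.207% of silent-family genes and 0% of other short protein-coding genes. The 10 were 3 of 14 H2A genes, 1 of 17 H2B genes, 3 of 8 H3 genes, 3 of 11 H4 genes and 0 of 6 H1 genes. With 6 H1 genes, that 0 says little. The lower histone genes made up 10 of the 165 genes of the whole array that were at least 2-fold lower, and 8 of them were among the 100 lowest differences. The median over the 56 was -0.32 as deposited and -0.82 with the machinery median subtracted. With the silent-family median subtracted, 8 of the 56 were at least 2-fold lower, against 0.55% of all genes, and with the machinery median subtracted 19 were, against 7.55%. At 3-fold, 6 of the 56 were lower and 0 higher, against 0.37% and 0.365% of all genes, and at 1.5-fold 15 were lower and 1 higher, against 4.65% and 18.1%.

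**Figure D1:**
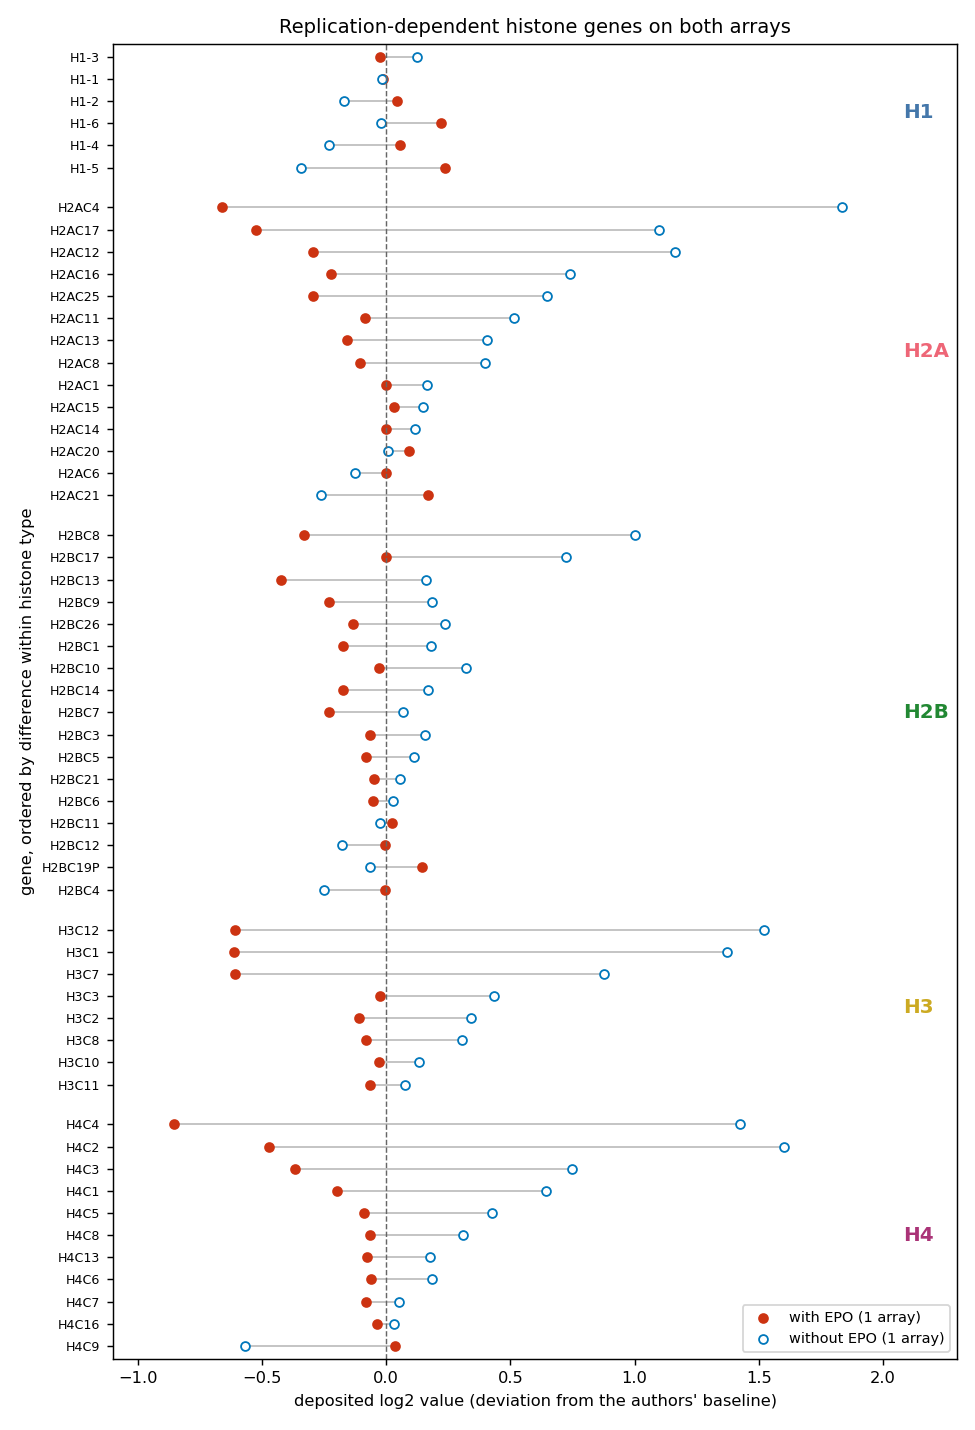
Deposited log2 value of each of the 56 histone genes on the array with EPO (filled) and on the array without EPO (open), 1 array each, ordered by difference within each histone type; a line joins the values of a gene and the dashed line marks the authors' baseline. The 10 genes at least 2-fold lower with EPO lie between -0.85 and -0.29 with EPO and between 0.75 and 1.83 without EPO.

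The proximal promoters below show what lies in front of the genes with the largest differences. They are the lowest gene of each core type for which RefSeq gave a promoter (H2AC4, H2BC8, H3C1 and H4C4), and, for contrast, the highest H4 gene (H4C9) and the highest H1 gene (H1-5). Each is the 150 bases before the annotated start, 5′ to 3′ on the strand of the gene, from RefSeq (GRCh38.p14). Capitals mark matches, on either strand, to the TATA box (TATAAA), to the promoter box CCAAT, to the octamer bound by POU factors (ATTTGCAT), to the H1 box (AAACACA) or to a hexamer of the histone H4 promoter element (GGTCCG). No printed match overlaps that of another motif.
H2AC4, chr6:26033619-26033768, minus strand: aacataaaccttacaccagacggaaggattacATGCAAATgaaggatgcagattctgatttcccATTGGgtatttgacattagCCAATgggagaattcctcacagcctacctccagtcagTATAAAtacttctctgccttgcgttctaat
H2BC8, chr6:26216689-26216838, minus strand: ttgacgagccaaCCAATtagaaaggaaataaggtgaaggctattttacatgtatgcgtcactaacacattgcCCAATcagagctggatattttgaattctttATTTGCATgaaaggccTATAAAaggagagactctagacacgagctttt
H3C1, chr6:26020301-26020450, plus strand: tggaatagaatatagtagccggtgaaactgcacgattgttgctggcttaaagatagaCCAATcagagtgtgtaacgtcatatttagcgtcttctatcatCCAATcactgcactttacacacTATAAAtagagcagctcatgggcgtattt
H4C4, chr6:26189113-26189262, minus strand: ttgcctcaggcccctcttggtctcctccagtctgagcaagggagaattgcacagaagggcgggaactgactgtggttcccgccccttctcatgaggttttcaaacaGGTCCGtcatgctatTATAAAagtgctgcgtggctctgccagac
H4C9, chr6:27139132-27139281, plus strand: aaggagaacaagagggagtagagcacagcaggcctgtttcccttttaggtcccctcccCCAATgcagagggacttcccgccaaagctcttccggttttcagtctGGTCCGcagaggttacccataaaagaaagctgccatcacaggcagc
H1-5, chr6:27867589-27867738, minus strand: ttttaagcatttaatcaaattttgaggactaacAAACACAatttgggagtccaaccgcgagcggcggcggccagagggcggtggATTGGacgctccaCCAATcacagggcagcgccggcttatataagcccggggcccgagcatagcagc

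The 4 lower genes each carried the exact letters TATAAA, which began 29 to 32 bases before the start. Neither H4C9 nor H1-5 held those exact letters in this window. In about the same place, however, H1-5 reads tatataag and H4C9 cataaaag. Such near matches were not searched for, so the contrast rests on the exact string and does not show that these promoters lack a TATA box. Over the full 300 bases of each promoter in the table (250 before the start and 50 after), 50 of the 56 genes had an entry, and H2AC12, H2BC19P, H3C11, H3C12, H4C1 and H4C3 had none. TATAAA stood in all 7 of the lower genes with an entry and in 27 of the other 43, against 11.95% of 27305 promoters. Since 34 of the 50 held it, the contrast within the set says little with 7 genes. The other motifs went by histone type. CCAAT stood in every H1, H2A, H2B and H3 promoter of the 41 with an entry and in 3 of 9 H4 promoters (35.7% of all promoters). The octamer stood in 10 of 13 H2A and 13 of 16 H2B promoters and in none of the 6 H1, 6 H3 and 9 H4 promoters (1.80% of all). The H1 box stood in 6 of 6 H1 promoters and in 1 of 44 others (5.76% of all), and GGTCCG in 8 of 9 H4 promoters and in 3 of the 41 others (11.2% of all). H4C4 and H4C9, at opposite ends of the H4 genes, both held GGTCCG, so that hexamer did not separate them. Neighbouring H2A and H2B genes usually face away from each other, so their windows can share bases, and a match of letters is not evidence of binding.

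H2A genes spanned the widest range of differences, 0.43 to -2.50, around a median of -0.53, and subtracting a class median left it below 0 in both cases. H2AC4 (formerly HIST1H2AB) had a log2 value of -0.66 with EPO, against 1.83 without EPO, a difference of -2.50 (5.64-fold lower) and the 23rd lowest of all 18377 genes. H2AC17 (HIST1H2AM) had -0.52 with EPO and 1.10 without EPO, a difference of -1.62 (3.08-fold lower). H2AC12 (HIST1H2AH) had -0.29 with EPO and 1.16 without EPO, a difference of -1.46 (2.74-fold lower). Each of these genes encodes a canonical, replication-coupled H2A, and each was below the baseline with EPO and above it without EPO.

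The next H2A genes stopped short of 2-fold. H2AC16 stood at -0.96 and H2AC25, the H2A gene of the former HIST3 cluster on chromosome 1, at -0.94. H2AC16 and H4C3 (-1.12) were the members nearest to the threshold on either side. H2AC11, H2AC13 and H2AC8 lay between -0.60 and -0.50. H2AC1, a testis form, and the canonical H2AC15 and H2AC14 lay between -0.17 and -0.12. The other 3 were higher with EPO by less than 2-fold: H2AC20 at 0.084, H2AC6 at 0.12 and H2AC21, with 0.17 with EPO and -0.26 without EPO, at 0.43.

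H2B genes differed less, with a median of -0.30, which turned to 0.036 with the silent-family median subtracted. H2BC8 (HIST1H2BG) was the 1 H2B gene past 2-fold, with -0.33 with EPO and 1.00 without EPO, a difference of -1.33 (2.52-fold lower). H2BC17 followed at -0.73, and it sat at the baseline with EPO (-0.0013) and at 0.73 without EPO. H2BC13 stood at -0.58, with -0.42 with EPO and 0.16 without EPO. Its value lay farther from the baseline with EPO than without EPO. The same held for other H2B genes, such as H2BC9 (-0.23 with EPO, 0.18 without EPO) and H2BC7 (-0.23 with EPO, 0.067 without EPO). From H2BC9 (-0.42) to H2BC6 (-0.081) lay another 10 genes, including the testis-specific H2BC1 at -0.35. Of the 17, 4 were above 0: H2BC11 at 0.048, H2BC12 at 0.17, the pseudogene H2BC19P at 0.21 and H2BC4 at 0.24.

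After the values had been seen, the H2B genes were divided by the length of their RefSeq gene model. Models over 1000 bases belonged to 4 of the 56 genes, H2BC4, H2BC5, H2BC12 and H2BC21, all of them H2B genes, and some clustered H2B genes are known to give longer, spliced or polyadenylated transcripts as well as the stem-loop form. Those 4 lay between -0.19 and 0.24 with a median of 0.036. The other 13 H2B genes had a median of -0.35 and ran from -1.33 to 0.21. The ranges overlap, and with 4 genes the division is a description only.

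All 8 H3 genes were below 0, around a median of -0.45 that kept its sign under both class scalings, and they comprised 3 genes past 2-fold and 5 within it. H3C12 (HIST1H3J) had -0.61 with EPO and 1.52 without EPO, a difference of -2.13 (4.38-fold lower). H3C1 (HIST1H3A) had -0.61 with EPO and 1.37 without EPO, a difference of -1.99 (3.97-fold lower). H3C7 (HIST1H3F) had -0.61 with EPO and 0.88 without EPO, a difference of -1.49 (2.80-fold lower). All 3 encode the same H3.1 protein as the remaining H3 genes of chromosome 6. The other 5 were H3C3 at -0.46, H3C2 at -0.45, H3C8 at -0.39, H3C10 at -0.16 and H3C11 at -0.14, so no H3 gene lay between -1.49 and -0.46.

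H4 genes, nearly all of which encode 1 identical protein, had a median of -0.37 (-0.037 with the silent-family median subtracted) and were below 0 in 10 of 11 cases. H4C4 (HIST1H4D) had the lowest value of any member with EPO, -0.85, against 1.43 without EPO, a difference of -2.28 (4.86-fold lower). H4C2 (HIST1H4B) had -0.47 with EPO and 1.60 without EPO, a difference of -2.08 (4.21-fold lower). H4C3 (HIST1H4C) had -0.37 with EPO and 0.75 without EPO, a difference of -1.12 (2.17-fold lower). Genes for the same protein therefore differed by more than 2 on the log2 scale among themselves.

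Below these, H4C1 stood at -0.84 and H4C5 at -0.52. H4C8, H4C13, H4C6, H4C7 (whose product departs from the common H4 sequence) and H4C16, the single H4 gene on chromosome 12, ran from -0.37 to -0.067. H4C9 was the exception and the highest of all 56 genes, with 0.036 with EPO and -0.57 without EPO, a difference of 0.60.

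Linker histone H1 genes lay higher than the core genes. Their median was 0.23 (-0.27 with the machinery median subtracted), against -0.36 for the 50 core genes, a gap of 0.59. Subtracting a constant from all differences cannot change that gap, so the scalings do not check it. H1-5 stood highest, with 0.24 with EPO and -0.34 without EPO, a difference of 0.58. H1-4 stood at 0.29, the testis form H1-6 at 0.24, H1-2 at 0.21 and H1-1 at 0.0017, where the arrays hardly differed. H1-3 was the 1 H1 gene below 0, with -0.023 with EPO and 0.12 without EPO, a difference of -0.15. The range of H1, -0.15 to 0.58, overlapped those of H2A, H2B and H4 widely and that of H3 (-2.13 to -0.14) at its upper end.

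**Figure D2:**
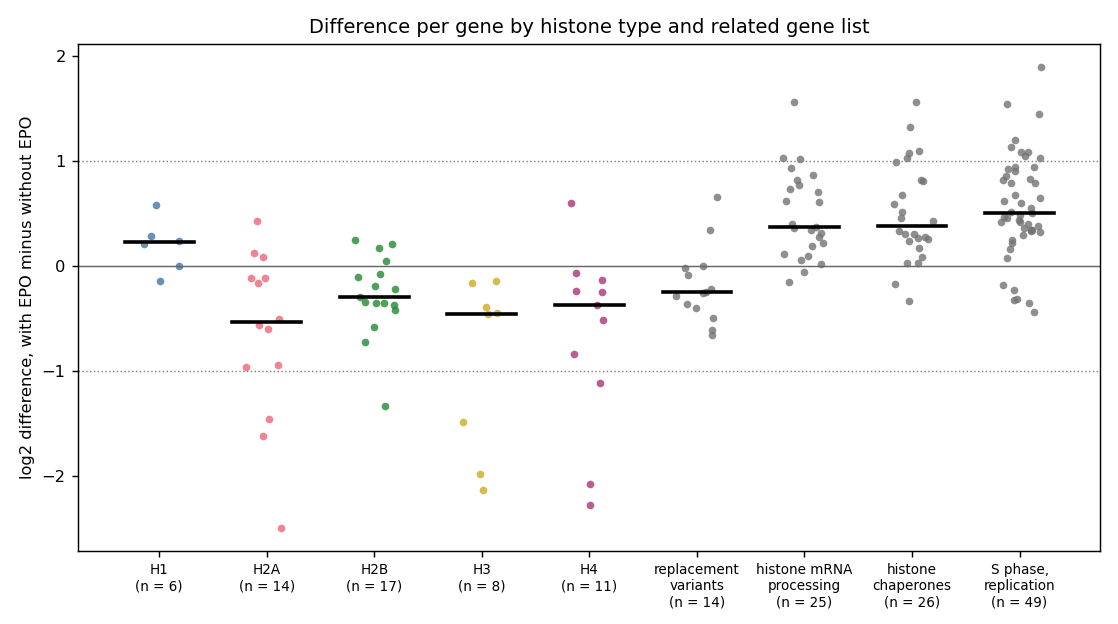
Log2 difference with EPO minus without EPO for each gene of the 5 histone types (coloured) and of 4 related gene lists (grey); black bars are medians over genes and dotted lines mark 2-fold. The medians of H2A, H2B, H3 and H4 lie between -0.53 and -0.30, that of H1 at 0.23, and those of the processing, chaperone and S-phase lists between 0.37 and 0.50, all as deposited; subtracting the machinery median makes the H1, processing and chaperone medians negative, while subtracting the silent-family median makes those of H2B and the variants positive.

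The values behind these differences lay mostly on opposite sides of the baseline, which largely restates the sign of the difference. With EPO below and without EPO above the baseline were 42 of the 56 genes, against 44.3% of all genes. These were 41 of the 50 core genes and 1 of the 6 H1 genes. The same held for 346 of 482 silent-family genes and 49 of 83 other short protein-coding genes. Without EPO, 8 of the 56 lay at least 1 above the baseline, against 0.588% of all genes. Of the 108 genes with such high values without EPO, 8 were core histone genes: H2AC4, H2AC17, H2AC12, H2BC8, H3C12, H3C1, H4C4 and H4C2. All 8 are among the 10 genes at least 2-fold lower with EPO, so this count largely restates that difference.

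**Figure D3:**
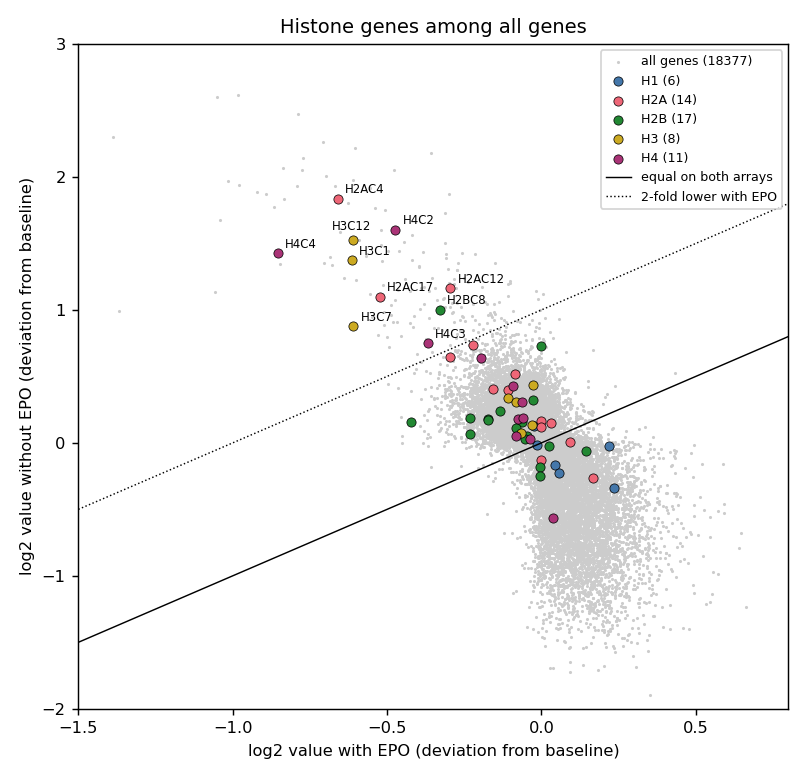
Log2 value with EPO (horizontal) against the log2 value without EPO (vertical) for all 18377 genes (grey) and the 56 histone genes (coloured by type), 1 array each. The 10 named genes lie above the dotted line for 2-fold lower with EPO, at the upper left edge of the cloud, while the H1 genes differ by at most 0.58 from the solid line of equal values.

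Histone genes sit in clusters, and position was examined next. Chromosome 6 holds 49 of the 56 in groups of 31 and 18 genes that are separated by the widest gap between members. The first group had 7 of 31 genes (22.6%) at least 2-fold lower with a median of -0.35. The second had 3 of 18 (16.7%) with a median of -0.30, so both contributed. Over all genes the share was 0.898%. All 10 lower genes were on chromosome 6. The 6 genes on chromosome 1 had 0 past 2-fold and a median of -0.0090, and they ran from -0.94 for H2AC25 to 0.43 for H2AC21. With 6 genes that count says little, and a difference by position was not tested. Among the chromosome 6 members lie 21 measured non-histone genes, which include butyrophilin, phosphate transporter and zinc finger genes. Their median was 0.019. Of them 0 were at least 2-fold lower, against 0.898% of all genes, a share at which 21 genes say little. At least 2-fold higher were 2 (9.52%, ZNF204P at 1.05 and ZNF391 at 1.00), against 6.19% of all genes. The iron regulator HFE, which lies between histone genes, stood at -0.19.

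H2A and H2B genes often lie side by side with a shared region between their starts. Measured here were 10 neighbouring pairs, taken only by a distance of at most 500 bases between the gene bodies. Strand was not used, so a shared region between the starts was not checked. Of the 10 pairs, 3 had a member at least 2-fold lower (H2AC17, H2AC12 and H2BC8), and 0 had both. Over all genes 0.898% were at least 2-fold lower. With so few genes past 2-fold, the absence of a pair with both says little. H2AC17 and H2BC17 were both low, at -1.62 and -0.73, and so were H2AC8 and H2BC8, at -0.50 and -1.33. In contrast, H2AC12 stood at -1.46 and its neighbour H2BC12 at 0.17. The H2A gene was the lower of the pair in 5 of 10. Across the 10 pairs the rank correlation of the differences was 0.35 (Pearson 0.17), where all points share the same 2 arrays.

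**Figure D4:**
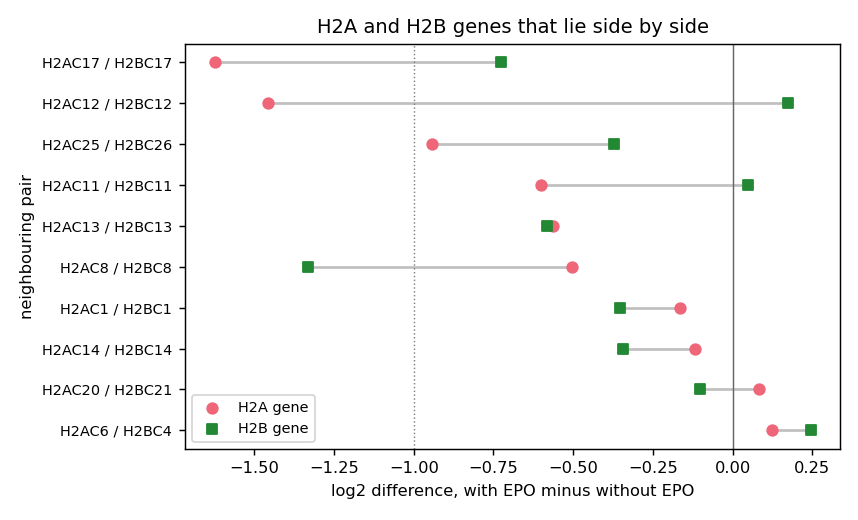
Log2 difference with EPO minus without EPO for 10 neighbouring H2A (circles) and H2B (squares) genes, 1 array per group; the dotted line marks 2-fold lower. In 3 pairs 1 gene is past 2-fold and in 0 both are, which says little with so few. H2AC12 and H2BC12 are farthest apart, at -1.46 and 0.17.

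Another 16 clustered histone symbols appeared only on probes that carry several symbols. Many copies of histone genes are near-identical in sequence. The 16 probes whose several symbols are all histone genes had a median of -0.34, ran from -1.07 to 0.046 and were below 0 in 15 cases. The pair of probes shared by H4C11 and H4C12 stood at -1.07 and -0.91, with -0.24 and -0.21 with EPO, against 0.82 and 0.70 without EPO. The 4 probes shared by H3C13, H3C14 and H3C15 lay between -0.52 and -0.37, and 4 probes shared by H2BC18 with at least 1 gene outside the set between -0.83 and -0.19. These probes are not independent, since several of them returned almost the same value. The same likeness of sequence makes the identity of single core histone genes uncertain, because a probe assigned to 1 gene can also capture the RNA of another.

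Of 19 listed replacement and tissue-specific histone variants whose symbols fall outside the rule for the set, 14 were measured. None (0) was 2-fold lower or higher, against 0.898% and 6.19% of all genes, so a set of this size says little by that count. Of the 14, 12 were below 0, against 54.6% of all genes, with a median of -0.25 (0.080 with the silent-family median subtracted). H2AX, which marks DNA breaks when phosphorylated and whose mRNA can carry either kind of end, stood at -0.66, with -0.15 with EPO and 0.51 without EPO. H3-3B, which encodes the replacement histone H3.3, stood at -0.61, with -0.015 with EPO and 0.60 without EPO. H2AZ2, a variant found at promoters, lay the other way at 0.66, while its close relative H2AZ1 hardly differed.

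Factors that make and handle histone mRNA lay mostly above 0 in the values as deposited, with a median of 0.37 that turned to -0.13 with the machinery median subtracted. Of 28 listed, 25 were measured. At least 2-fold higher were 3 (12%), against 6.19% of all genes and 14.2% of machinery genes, and 0 were lower, against 0.898% of all genes. CPSF2, a subunit of the cleavage complex that cuts histone pre-mRNA, had 0.17 with EPO and -1.39 without EPO, a difference of 1.56. The cleavage factor CSTF2 stood at 1.03 and ZNF473, a zinc finger protein of the U7 processing complex, at 1.02. SLBP, which binds the stem-loop of histone mRNA and is needed for its processing, stood at 0.013, and NPAT, the coactivator of histone transcription, at 0.057. The exonuclease ERI1, which trims the histone mRNA end, stood at 0.62 and UPF1, a helicase needed for its decay, at 0.36.

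Histone chaperones, which carry new histones to DNA, had a median of 0.38 (-0.12 with the machinery median subtracted). At least 2-fold higher were 5 of 26 (19.2%), against 6.19% of all genes and 14.2% of machinery genes, and 0 were lower, against 0.898% of all genes. ASF1A, which hands H3 and H4 to assembly factors, had 0.25 with EPO and -1.31 without EPO, a difference of 1.56. ANP32E, a chaperone of H2A.Z, stood at 1.32, the FACT subunit SUPT16H at 1.10, the CAF-1 subunit CHAF1B at 1.08 and the histone-binding protein SET at 1.03. NASP, which holds a reserve of H3 and H4, stood at 0.26.

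Genes of S phase, when histone mRNA is made, also lay on the other side of 0 from the core histones. Of 50 listed, 49 were measured, with a median of 0.50 (0.0030 with the machinery median subtracted). At least 2-fold higher with EPO were 9 of them (18.4%), against 6.19% of all genes and 14.2% of machinery genes, and 0 were lower, against 0.898% of all genes. CDC6, which loads the replicative helicase, had 0.66 with EPO and -1.23 without EPO, a difference of 1.89. The helicase subunit MCM6 stood at 1.55, the ribonucleotide reductase subunit RRM1 at 1.44, the helicase component GINS2 at 1.20 and the phosphatase CDC25A at 1.13. The DNA repair enzyme UNG, the checkpoint adaptor CLSPN, the helicase component GINS1 and the origin-firing kinase CDC7 lay between 1.03 and 1.09. PCNA, the sliding clamp of DNA polymerase, stood at 0.29 and CCNE1, the cyclin E1 gene, at 0.44. Of the 49, 6 were below 0, the lowest being the polymerase gene POLE at -0.44.

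Gene length is another property that the histone genes share. The median RefSeq gene model of the 56 was 488 bases, against 24461 bases over all genes. The 83 other protein-coding genes of at most 1000 bases, outside the silent families, had a median difference of -0.17, with 63 of them (75.9%) below 0, a share close to the 76.8% of the histone genes, and 1 (1.20%) at least 2-fold lower. The part that length has in the histone values was not tested.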

How the data were processed

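The authors deposited 1 table of log2 values, 28869 probes by 2 arrays, with probes centred on a baseline. The sources used here give neither the summarisation, the normalization and the software nor the logarithm's base. Base 2 is assumed, and every fold rests on it. Biotin-labelled sense-strand cDNA was hybridised, per the labels' protocols.

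Of the probes, 19310 carried 1 gene symbol in the platform annotation, 1752 several and 7807 none. Symbols were updated by Entrez ID from RefSeq (GRCh38.p14; 19279 matched), and probes of a gene were averaged. The difference between arrays cancels the baseline. Machinery and silent classes were defined by symbol. Members and lists were chosen with earlier results of these data known. Values are given for members past 2-fold and the extremes of each histone type, and in each list for the genes past 2-fold or the 3 largest; other genes were named after their values were seen. Alternatives were other scalings, fold thresholds, probe rules, member sets and the mean. An alternative restricted to members with a protein sequence of their own was not run, because no protein table was used here. Counting was tested on simulated data. Python 3.11.15, NumPy 2.4.6, pandas 2.3.3 and matplotlib 3.10.9 were used.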

Additional observations from a re-analysis of the deposited data

How the results depend on the processing

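A fixed size took the place of a test, and a value counts as unchanged when a median moved by at most 0.1 or a count by at most 1.5 times. No paired analysis was possible because each group has 1 array. All 12 results kept within these bounds after subtraction of the all-gene median, and with either other probe rule or the median of the probes (each member has 1 probe), as did the 8 results on the members without the pseudogene. With the machinery median (0.50) subtracted, 19 histone genes were at least 2-fold lower; the medians were -0.82 for all members, -0.27 for H1 (reversed), -1.03 for H2A, -0.80 for H2B, -0.95 for H3, -0.87 for H4, -0.75 for replacement variants, -0.13 for processing factors and -0.12 for chaperones (both reversed), and 0.0030 for S-phase genes. With the silent-family median (-0.33) subtracted they were 0.013 for all members, 0.036 for H2B and 0.080 for replacement variants (these 3 reversed), 0.56 for H1, -0.20 for H2A, -0.12 for H3, -0.037 for H4, 0.70 for processing factors, 0.71 for chaperones and 0.84 for S-phase genes. Over all genes these scalings gave 111 higher and 1387 lower, and 2812 higher and 101 lower, against 1138 and 165 as deposited. By the mean, the values were -0.48 for all members, -0.64 for H2A, -0.90 for H3, -0.66 for H4, 0.49 for processing factors and 0.51 for chaperones. A 3-fold threshold left 6 lower members, against 0.37% of all genes, and a 1.5-fold threshold gave 15 lower and 1 higher, against 4.65% and 18.1%. With probes shared by members added, the H2A median was -0.35 and 11 features were lower, and averaging those with the same symbols, an alternative chosen after seeing the data, moved none of the 8 results on the members beyond the bounds.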
